A study of Mus musculus with 6 samples.

Results

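The genes described here are 42 mouse genes of the apoptosis machinery and of the p53 pathway, chosen by symbol: BCL2 family members, caspases and their adaptors, proteins released from mitochondria, inhibitor of apoptosis proteins, p53 with its regulators, and p53 target genes. Of the 42, 38 had a row in the mRNA tables, which list 11609 genes. Bcl2, Bik, Pmaip1 and Perp had no row in the tables used here. Of the 38, 36 reached the level asked for testing, which was 1 FPKM or more in 3 or more of the 6 libraries, as did 10590 mRNAs in all. FPKM is a fragment count scaled for transcript length and for library size. Bcl2l11 and Ddb2 had a row but stayed below that level, and Casp6 reached it only through its RSL3 libraries.

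The RNA came from N2a, a neuroblastoma line of the mouse, which in all samples had been turned into neuron-like cells with 10 µM retinoic acid over 96 h in medium with 2% serum. The tested cells (3 libraries) then received 5 µM RSL3 for 24 h, and the control cells (3 libraries) received the solvent DMSO. RSL3 blocks GPX4, the glutathione peroxidase that clears lipid peroxides, and so drives ferroptosis. The comparison asks whether apoptosis and p53 genes move when ferroptosis is induced. N2a is 1 transformed line, and no source used here says that libraries of a group came from separately grown cultures, so the p-values measure only the spread between libraries, which may be technical.

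Apoptosis runs along a pair of routes. In the mitochondrial route, BH3-only proteins sense damage and engage the BCL2 family, the effectors BAX and BAK open the outer mitochondrial membrane, and released cytochrome c assembles APAF1 and caspase-9 into the apoptosome. In the death receptor route, FADD recruits caspase-8, which FLIP restrains. The transcription factor p53, encoded by Trp53 in the mouse, switches on several of these genes together with cell cycle inhibitors and its own antagonist Mdm2. Ferroptosis, in contrast, is death by iron-dependent lipid peroxidation and needs no caspase. Caspase cleavage, cytochrome c release and p53 stabilisation are protein events that mRNA levels do not measure.

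The mRNA values of a library summed to 200135 to 213765 FPKM with RSL3 and to 220605 to 225295 FPKM with DMSO; FPKM does not tell the number of reads, so depth is unknown. Neuronal and sympathetic neuroblast markers had a row for 15 of 18 genes, with none for Dcx, Nefl and Nefm, and summed to 607 to 675 FPKM with RSL3 and 663 to 683 FPKM with DMSO; 3 of the 14 tested were lower with RSL3. Immune markers had a row for 1 of 13, Cd68, at 0.596 to 0.606 FPKM with RSL3 and 0.333 to 0.413 FPKM with DMSO. Glial markers had a row for 4 of 12, with sums of 1.82 to 9.42 FPKM with RSL3 and 1.89 to 6.94 FPKM with DMSO. Fibroblast and endothelial markers had a row for 4 of 12, with sums of 7.86 to 8.60 FPKM with RSL3 and 9.72 to 18.97 FPKM with DMSO. Liver markers had a row for 20 of 20 and summed to 33.1 to 46.6 FPKM with RSL3 and 89.0 to 124 FPKM with DMSO, with 15 of 16 tested lower with RSL3. The part of these transcripts in the results below was not tested. RSL3 replicate 1 stood apart from RSL3 replicates 2 and 3 along GC content, as described below, and the members whose value or call moves most with it are given with and without it.

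No member passed the test with all 6 libraries. In limma on log2(FPKM + 1), with Benjamini-Hochberg adjustment over all 10590 mRNAs and a threshold of 0.05, 0 of 36 members were higher and 0 were lower with RSL3. Of all mRNAs tested, 2.46% were called higher and 3.92% lower, 6.38% in all. At that share 2.30 of 36 members would be called, so a count of 0 lies close to the background. An unadjusted p under 0.05 was reached by 12 of 36 members (33.3%), 9 with a positive and 3 with a negative fold change, against 24.1% of all mRNAs. By role these were 2 of 3 anti-apoptotic BCL2 proteins, 0 of 2 effectors, 1 of 3 BH3-only proteins, 3 of 7 caspases and adaptors, 2 of 5 proteins released from mitochondria, 1 of 2 inhibitor of apoptosis proteins, 0 of 3 in the p53 and MDM group and 3 of 11 p53 targets. The smallest adjusted p among the members was 0.0600 in limma, for Cycs. In bulk RNA, fewer cells of a type and less RNA per cell cannot be told apart.

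The intervals show how large a difference the data allow. The 95% interval of the fold change in FPKM + 1 lay within 2-fold in either direction for 35 of 36 members (97.2%, against 97.3% of all mRNAs), the exception being Aen. It lay within 1.5-fold for 31 of 36 (86.1%, against 82.4% of all mRNAs). For members with low values, such as Xiap and Trp53inp1, the interval in FPKM itself is wider than these counts tell. Fold changes ranged from -0.43 to 0.48 on the log2(FPKM + 1) scale, which understates differences of genes with low values. Their median was 0.036, with 20 positive and 16 negative, and the median over all mRNAs was -0.031. The member median was -0.018 without DMSO replicate 3 and at least 0.028 without any other library. The RSL3 and DMSO libraries did not overlap for 15 members. In 10 of them (Gadd45a, Casp9, Casp8, Phlda3, Cflar, Bcl2l2, Bcl2l1, Bid, Cdkn1a and Casp6) the RSL3 values were the higher ones, an ordering found for 13.4% of all mRNAs. In 5 (Cycs, Xiap, Diablo, Zmat3 and Tigar) they were the lower ones, an ordering found for 19.6%. Casp6 was tested only through its RSL3 values. Its place among the 10, and among the 20 with a positive fold change, thus follows in part from the filter and counts for nothing.

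**Figure D1:**
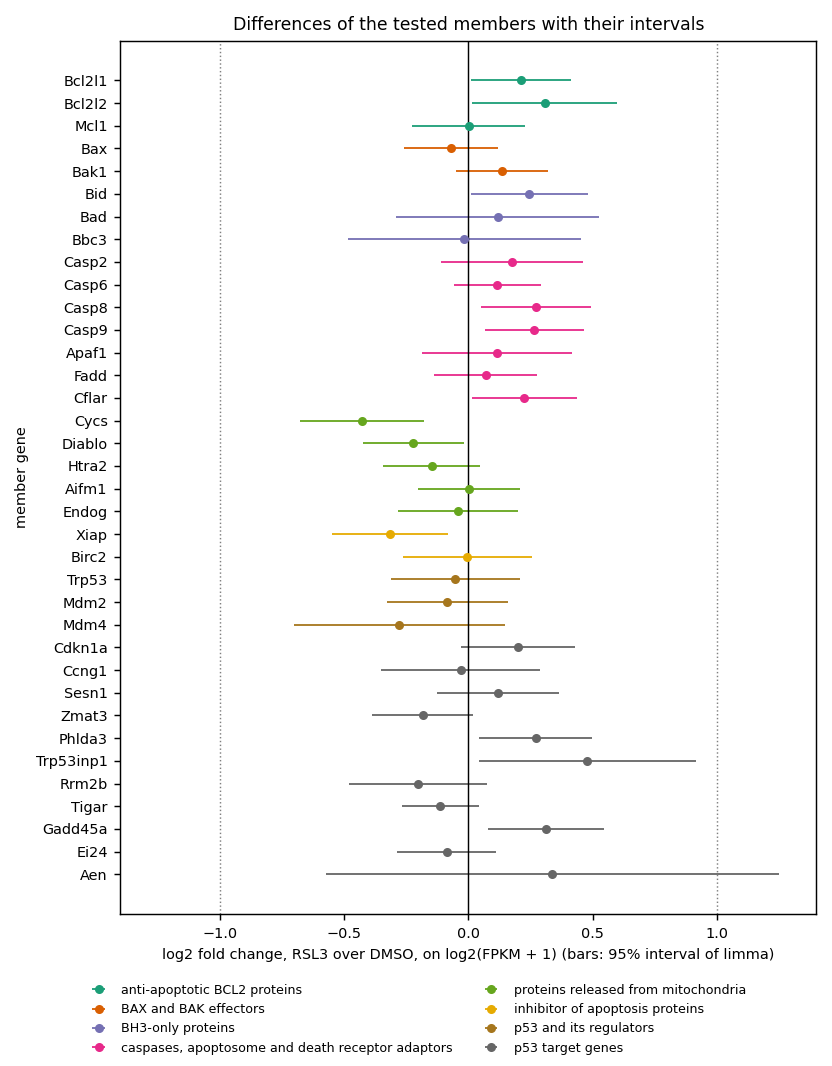
Log2 fold change of each of the 36 tested members, RSL3 over DMSO, on the log2(FPKM + 1) scale (points), with the 95% interval of limma (bars) and colours for the groups of genes. Dotted lines mark a 2-fold difference in FPKM + 1. The points lie between -0.43 and 0.48, and the interval of Aen alone extends past a dotted line.

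Levels spread widely among the members. In the DMSO libraries the most abundant per length were Mcl1, Cycs, Trp53, Bax and Cdkn1a, with means of 43.4, 42.8, 36.6, 35.2 and 31.1 FPKM, and each stood above at least 88.2% of all listed mRNAs. In the RSL3 libraries their means were 43.6, 31.8, 35.4, 33.5 and 36.0 FPKM. At the low end were Cflar, Ddb2, Casp6 and Bcl2l11, with means of 1.42, 0.993, 1.05 and 0.879 FPKM with RSL3 and 1.07, 0.947, 0.893 and 0.664 FPKM with DMSO. Every listed mRNA averaged 0.5 FPKM or more in RSL3 or DMSO libraries, so the 4 members with no row cannot be placed on this scale.

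Among the anti-apoptotic BCL2 proteins, which hold BAX and BAK in check, 0 of 3 tested members passed, and their median log2 fold change was 0.21. Bcl2l1, which encodes BCL-XL, was at 6.17, 5.29 and 5.93 FPKM in the RSL3 libraries, against 5.14, 4.80 and 4.66 FPKM in the DMSO libraries. Every RSL3 value lay above every DMSO value, but the difference did not pass the test (log2 fold change 0.21, SE 0.086, limma adjusted p = 0.190). Mcl1, a short-lived BCL2 relative, was at 37.8, 48.6 and 44.4 FPKM with RSL3, against 43.6, 45.2 and 41.3 FPKM with DMSO. The RSL3 values enclosed the DMSO values, and the difference was 0.00038 on the log2 scale (95% interval -0.23 to 0.23). Bcl2l2, which encodes BCL-W, was at 1.55, 2.23 and 2.47 FPKM with RSL3, against 1.51, 1.39 and 1.51 FPKM with DMSO. Its RSL3 replicate 1 lay just above the DMSO range, and its log2 fold change was 0.31 (limma adjusted p = 0.186), or 0.44 without RSL3 replicate 1 (limma adjusted p = 0.0173). Bcl2l2 shares its strand with the readthrough gene Gm20521, and 12.8% of its transcripts' 31-base words occur in other genes, so its value is uncertain.

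The effectors BAX and BAK are the pore formers of the outer mitochondrial membrane, and 0 of 2 passed. Bax was at 35.9, 31.1 and 33.6 FPKM with RSL3, against 37.6, 35.5 and 32.7 FPKM with DMSO. The groups overlapped (log2 fold change -0.070, limma adjusted p = 0.648; 95% interval -0.26 to 0.12), and quantile normalization turned the sign. Bax shares its strand with the overlapping gene Gm45808, and 11.1% of its words occur in other genes. Bak1 was at 23.9, 20.3 and 23.2 FPKM with RSL3, against 19.8, 21.0 and 20.2 FPKM with DMSO. RSL3 replicates 1 and 3 lay above the DMSO range and replicate 2 inside it (log2 fold change 0.14, limma adjusted p = 0.342). The ratio of Bax to Bcl2l1, computed within each library, was 5.83, 5.89 and 5.66 with RSL3 and 7.32, 7.39 and 7.01 with DMSO. Those ranges did not overlap. The ratio was chosen with the values in view, so it is a description with no test. The ratio of Bax to Mcl1 was 0.952, 0.640 and 0.756 with RSL3 and 0.863, 0.784 and 0.790 with DMSO, which overlap. The ratio of Bak1 to Bcl2l1 was 3.88, 3.84 and 3.91 with RSL3 and 3.86, 4.38 and 4.33 with DMSO, which overlap too.

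Of the 6 BH3-only genes, the damage sensors of the family, Bik and Pmaip1 (NOXA) had no row in the tables used here and 3 could be tested, of which 0 passed. Bbc3, which encodes the p53-induced protein PUMA, was at 6.99, 3.41 and 5.30 FPKM with RSL3, against 4.85, 5.33 and 5.18 FPKM with DMSO. Its RSL3 values spread above and below the DMSO values (log2 fold change -0.016, SE 0.20, limma adjusted p = 0.975), with the sign set by the library left out: -0.22 without RSL3 replicate 1 and 0.21 without replicate 2. Bid, which caspase-8 cleaves to link both routes, was at 6.76, 8.33 and 7.71 FPKM with RSL3, against 6.34, 6.74 and 5.68 FPKM with DMSO. The groups did not overlap, by a margin of hundredths of an FPKM (log2 fold change 0.24, limma adjusted p = 0.191). Bad was at 14.6, 10.2 and 10.3 FPKM with RSL3, against 13.2, 9.81 and 9.03 FPKM with DMSO, with replicate 1 the highest of each group (log2 fold change 0.12, limma adjusted p = 0.727). Bcl2l11, which encodes BIM, was at 0.919, 0.754 and 0.964 FPKM with RSL3, against 0.862, 0.657 and 0.473 FPKM with DMSO. It was below the level asked for testing, and with no filter its log2 fold change was 0.18 (limma adjusted p = 0.345).

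**Figure D2:**
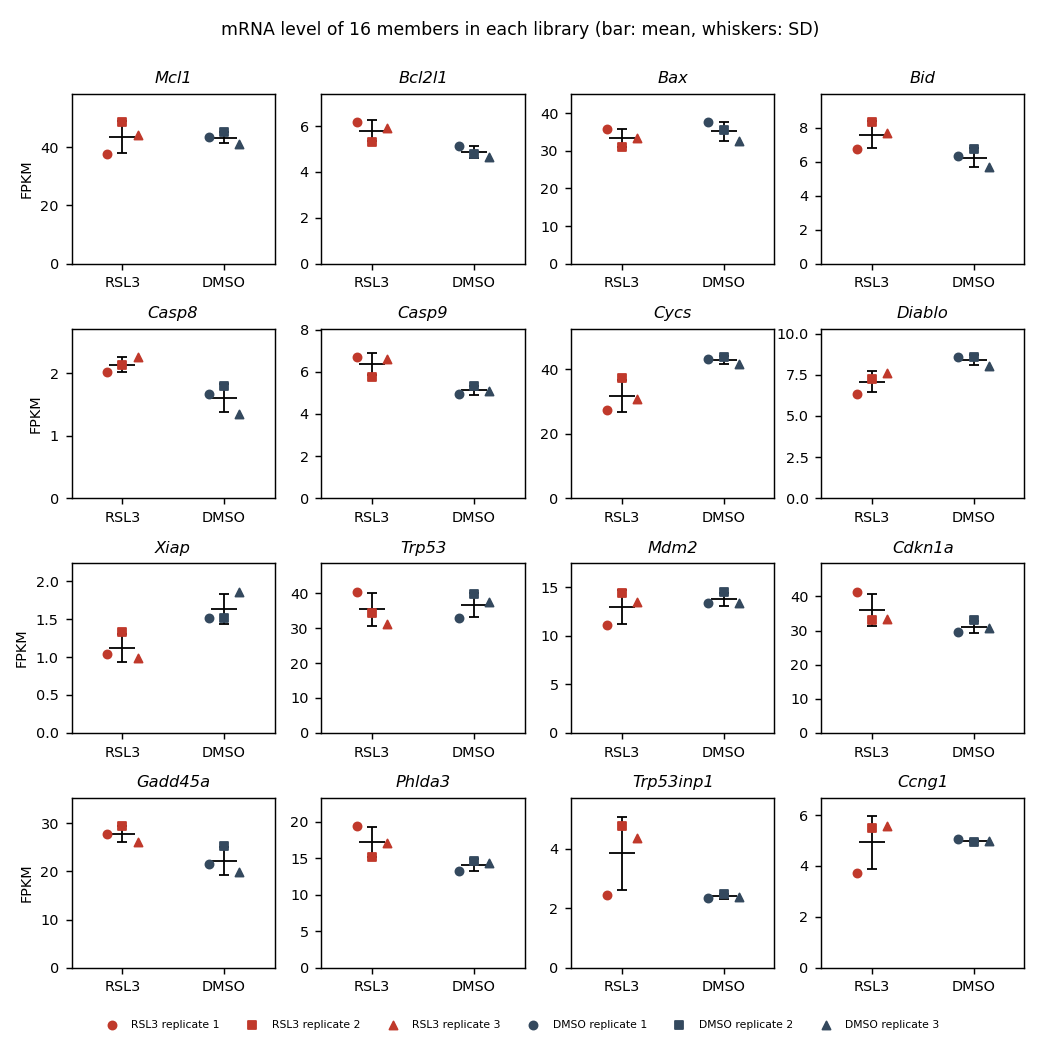
FPKM of 16 members in each RSL3 (red) and DMSO (blue) library, marker shapes giving replicates 1 to 3, with the mean (bar) and SD (whiskers) of 3 libraries and axes from 0. Cycs and Xiap were lower and Casp8, Casp9 and Gadd45a higher in every RSL3 library than in any DMSO library, and Mcl1, Bax, Trp53 and Mdm2 overlapped.

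Of the 7 genes of the caspases, the apoptosome and the death receptor adaptors, 0 passed. Their median log2 fold change was 0.18, with a range of 0.069 to 0.27, so that all were positive, as were 4613 of all 10590 mRNAs. Among them the sign of Casp6 follows in part from the filter on low values, as given below, and counts for nothing here. Casp9, the initiator caspase of the apoptosome, was at 6.71, 5.77 and 6.61 FPKM with RSL3, against 4.93, 5.33 and 5.09 FPKM with DMSO. Casp8, the initiator of the death receptor route, was at 2.02, 2.13 and 2.26 FPKM with RSL3, against 1.68, 1.79 and 1.35 FPKM with DMSO. For both genes every RSL3 value lay above every DMSO value. Casp9 had a log2 fold change of 0.27 (SE 0.085, limma adjusted p = 0.113) and Casp8 of 0.27 (SE 0.094, limma adjusted p = 0.133).

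Cflar, which encodes the caspase-8 restrainer FLIP, was at 1.25, 1.38 and 1.62 FPKM with RSL3, against 1.18, 1.01 and 1.01 FPKM with DMSO. It had a log2 fold change of 0.23 (limma adjusted p = 0.180) and groups that did not overlap. The ratio of Casp8 to Cflar was 1.62, 1.55 and 1.39 with RSL3 and 1.42, 1.77 and 1.34 with DMSO, which overlap. Apaf1, the scaffold of the apoptosome, was at 2.70, 3.47 and 3.58 FPKM with RSL3, against 2.59, 3.52 and 2.69 FPKM with DMSO. DMSO replicate 2 stood with RSL3 replicates 2 and 3, and RSL3 replicate 1 with the other DMSO libraries (log2 fold change 0.12, limma adjusted p = 0.638, and 0.21 without RSL3 replicate 1). Casp2, an initiator caspase linked to DNA damage, was at 5.81, 7.76 and 8.09 FPKM with RSL3, against 6.28, 6.50 and 5.87 FPKM with DMSO. RSL3 replicate 1 was the lowest of all 6 libraries, and the log2 fold change was 0.18 (limma adjusted p = 0.426), or 0.31 without that library (limma adjusted p = 0.0367). Casp6, an executioner caspase, was at 1.03, 1.06 and 1.06 FPKM with RSL3, against 0.994, 0.843 and 0.842 FPKM with DMSO. It was tested only because its RSL3 values reached 1 FPKM, so the order of its groups follows in part from the filter (limma adjusted p = 0.391). Fadd overlapped, at 5.27 to 5.40 FPKM with RSL3 and 4.64 to 5.63 FPKM with DMSO.

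Of the genes for proteins that mitochondria release in apoptosis, 0 of 5 passed; the median log2 fold change was -0.15, and 4 of 5 values were negative, as were 5977 of all 10590 mRNAs. Cycs, which encodes cytochrome c (chromosome 6, 50562563 to 50566538, minus strand, GRCm38), was at 27.5, 37.1 and 30.7 FPKM with RSL3, against 43.0, 43.8 and 41.5 FPKM with DMSO. Every RSL3 value lay below the lowest DMSO value, and the mean of 31.8 ± 4.89 FPKM with RSL3 stood against 42.8 ± 1.15 FPKM with DMSO (SD, n = 3 each). The log2 fold change was -0.43 (SE 0.11), and Cycs came closest to the threshold of all members. Its adjusted p in limma was 0.0504 without RSL3 replicate 1, 0.0169 without RSL3 replicate 2, and 0.00509 to 0.204 over all alternatives run. Mouse Cycs has processed copies in the genome, and 29.1% of the 31-base words of its transcripts occur in transcripts of other genes, the highest share of any member, so how reads were divided among them is uncertain. Diablo, which encodes the IAP antagonist SMAC, was at 6.36, 7.26 and 7.60 FPKM with RSL3, against 8.59, 8.57 and 8.02 FPKM with DMSO. It too had groups that did not overlap (log2 fold change -0.22, limma adjusted p = 0.171), shares its strand with the overlapping gene Gm49027, and has 18.5% of its words in other genes. Htra2, a serine protease that also antagonises IAPs, was at 10.3, 10.2 and 10.0 FPKM with RSL3, against 12.2, 10.2 and 11.8 FPKM with DMSO (log2 fold change -0.15, limma adjusted p = 0.330). Aifm1 and Endog, which act in caspase-independent DNA breakdown, had log2 fold changes of 0.0024 and -0.042 and groups that overlapped.

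The inhibitor of apoptosis proteins bind and block caspases, and 0 of 2 passed. Xiap, the most direct caspase inhibitor among them, was at 1.03, 1.32 and 0.982 FPKM with RSL3, against 1.52, 1.51 and 1.86 FPKM with DMSO. The RSL3 values lay below all DMSO values, close to the level asked for testing (log2 fold change -0.32, SE 0.099, limma adjusted p = 0.107). The ratio of Casp9 to Xiap was 6.48, 4.36 and 6.74 with RSL3 and 3.25, 3.53 and 2.74 with DMSO. Those ranges could not overlap, because Casp9 was higher and Xiap lower in every RSL3 library than in any DMSO library. The ratio, chosen with the values in view, therefore adds nothing to the values of both genes. The ratio of Diablo to Xiap was 6.15, 5.48 and 7.73 with RSL3 and 5.66, 5.67 and 4.31 with DMSO, which overlap. Birc2, which encodes cIAP1, was at 2.06, 2.73 and 2.84 FPKM with RSL3, against 2.43, 2.78 and 2.42 FPKM with DMSO, with RSL3 replicate 1 the lowest of all. Its log2 fold change of -0.0045 changed sign under 3 alternatives that involve scaling, GC content or library weights.

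**Figure D3:**
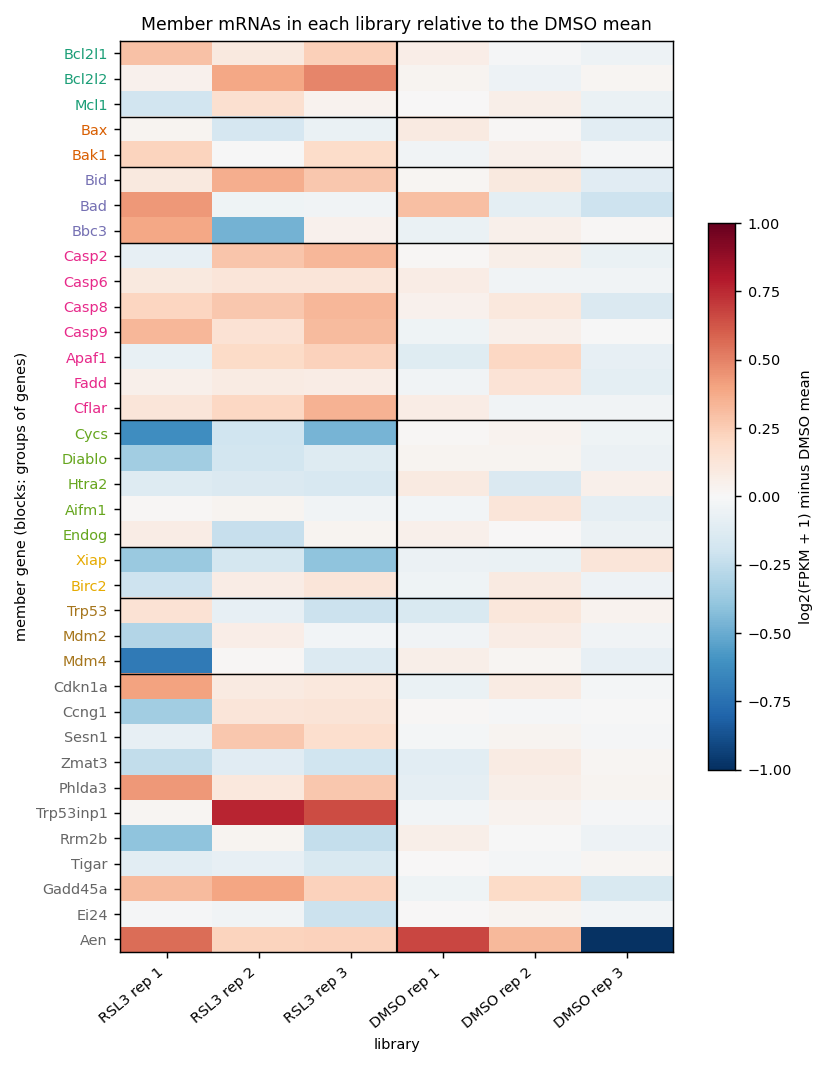
Log2(FPKM + 1) of the 36 tested members in each library minus the mean of the DMSO libraries; rows are grouped by role, RSL3 libraries are on the left and DMSO libraries on the right. RSL3 replicate 1 differs from RSL3 replicates 2 and 3 in rows such as Trp53inp1, Mdm4, Ccng1 and Bbc3, and the darkest cell among the DMSO libraries is Aen in replicate 3.

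The mRNAs of p53 and of its regulators all overlapped between the groups, and 0 of 3 passed. Trp53 was at 40.5, 34.4 and 31.2 FPKM with RSL3, against 32.8, 39.7 and 37.4 FPKM with DMSO, the highest library being RSL3 replicate 1 (log2 fold change -0.052, limma adjusted p = 0.819; 95% interval -0.31 to 0.21). Mdm2, the p53 ubiquitin ligase and itself a p53 target, was at 11.1, 14.5 and 13.5 FPKM with RSL3, against 13.4, 14.5 and 13.4 FPKM with DMSO. RSL3 replicate 1 was the lowest library and the others coincided with DMSO (log2 fold change -0.085, limma adjusted p = 0.668). Mdm4, a p53 inhibitor related to Mdm2, was at 1.80, 3.62 and 3.15 FPKM with RSL3, against 3.77, 3.63 and 3.32 FPKM with DMSO. Its log2 fold change of -0.28 (limma adjusted p = 0.400) was -0.062 without RSL3 replicate 1. Of the 31-base words of Mdm4 transcripts 13.5% occur in other genes, and of those of Trp53 10.1%. The ratio of Mdm2 to Trp53 was 0.273, 0.420 and 0.431 with RSL3 and 0.407, 0.367 and 0.358 with DMSO, which overlap.

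The promoters of both members that held a match to the p53 consensus are printed to show the match and its surroundings. RefSeq promoter windows on GRCm38.p6, from 250 bases before to 50 bases after an annotated start, were found for 34 of the 42 members (47 windows). The p53 consensus, a repeated decamer that reads alike on both strands, was searched with at most 1 mismatch and no spacer. It occurred in 29 of 32851 windows of all genes (0.0883%) and in those of 2 members, Ccng1 and Cdkn1a. The Ccng1 window is chr11:40755237-40755536 (minus strand), with the match 176 to 195 bases before the start. The Cdkn1a window is chr17:29090729-29091028 (plus strand), with the match 32 to 51 bases before an upstream start. The other Cdkn1a window, chr17:29093519-29093818, had 5 mismatches at best. Capitals mark the match. A match describes letters and is no measurement of p53 binding, and other members may carry sites outside these windows.
Ccng1: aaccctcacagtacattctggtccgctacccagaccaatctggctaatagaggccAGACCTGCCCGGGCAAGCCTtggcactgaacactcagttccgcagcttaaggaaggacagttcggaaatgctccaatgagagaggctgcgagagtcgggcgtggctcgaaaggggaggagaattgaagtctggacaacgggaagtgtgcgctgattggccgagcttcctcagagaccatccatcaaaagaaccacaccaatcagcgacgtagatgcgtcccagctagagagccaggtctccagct
Cdkn1a: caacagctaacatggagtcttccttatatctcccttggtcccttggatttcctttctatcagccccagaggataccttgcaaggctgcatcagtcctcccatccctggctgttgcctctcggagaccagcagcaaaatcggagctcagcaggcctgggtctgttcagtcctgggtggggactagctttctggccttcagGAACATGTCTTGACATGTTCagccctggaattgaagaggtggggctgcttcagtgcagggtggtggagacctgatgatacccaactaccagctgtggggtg

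Neither of these genes passed the test. Cdkn1a, which encodes the cell cycle inhibitor p21, was at 41.4, 33.2 and 33.5 FPKM with RSL3, against 29.7, 33.0 and 30.7 FPKM with DMSO. RSL3 replicate 1 was clearly the highest, while replicates 2 and 3 lay just above the highest DMSO library (log2 fold change 0.20, SE 0.098, limma adjusted p = 0.261; 95% interval -0.030 to 0.43). Without RSL3 replicate 1 the fold change was 0.098. Ccng1, which encodes cyclin G1, was at 3.71, 5.50 and 5.56 FPKM with RSL3, against 5.04, 4.94 and 4.97 FPKM with DMSO. RSL3 replicate 1 lay below and replicates 2 and 3 above the narrow DMSO range, so the sign of the difference (log2 fold change -0.031, limma adjusted p = 0.919) turned to 0.13 without replicate 1. Thus the RSL3 replicate that was the highest for Cdkn1a was the lowest for Ccng1.

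The 11 tested p53 target genes had 6 positive and 5 negative fold changes, a median of 0.12, and 0 past the threshold; Perp had no row in the tables used here and Ddb2 was below the level asked for testing. Gadd45a, a stress-induced growth arrest gene, was at 27.8, 29.4 and 26.1 FPKM with RSL3, against 21.5, 25.4 and 19.8 FPKM with DMSO. Phlda3, a p53-induced inhibitor of Akt signalling, was at 19.4, 15.2 and 17.1 FPKM with RSL3, against 13.2, 14.7 and 14.4 FPKM with DMSO. Both had RSL3 values above all DMSO values, with log2 fold changes of 0.31 (SE 0.099, limma adjusted p = 0.109) and 0.27 (SE 0.098, limma adjusted p = 0.148). Trp53inp1, a p53 cofactor in apoptosis and autophagy, was at 2.45, 4.76 and 4.35 FPKM with RSL3, against 2.33, 2.49 and 2.38 FPKM with DMSO. It had the highest fold change of the members (0.48, SE 0.19, limma adjusted p = 0.172), but RSL3 replicate 1 lay inside the DMSO range, and without it the fold change was 0.71 (limma adjusted p = 0.00435). Sesn1, an antioxidant regulator of mTOR signalling, was at 5.09, 6.76 and 6.23 FPKM with RSL3, against 5.36, 5.56 and 5.41 FPKM with DMSO, again with replicate 1 apart (log2 fold change 0.12, limma adjusted p = 0.545). Its fold change was 0.22 without RSL3 replicate 1 (limma adjusted p = 0.0805) and 0.042 without replicate 2.

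Most of the other p53 targets had a negative fold change, and none passed. Zmat3, an RNA-binding protein, was at 4.13, 4.63 and 4.31 FPKM with RSL3, against 4.66, 5.45 and 5.16 FPKM with DMSO (log2 fold change -0.18, limma adjusted p = 0.246). Tigar, a regulator of glycolysis, was at 9.50, 9.68 and 9.15 FPKM with RSL3, against 10.3, 10.1 and 10.5 FPKM with DMSO (log2 fold change -0.11, limma adjusted p = 0.353). Neither gene's groups overlapped, and Tigar's libraries were tight within each group. Rrm2b, a ribonucleotide reductase subunit for DNA repair, was at 1.06, 1.78 and 1.31 FPKM with RSL3 and 1.83, 1.72 and 1.62 FPKM with DMSO, and Ei24 at 5.91, 5.79 and 5.00 FPKM with RSL3 and 5.97, 6.08 and 5.84 FPKM with DMSO; both overlapped. Aen, an apoptosis-enhancing nuclease, was at 8.18, 6.27 and 6.31 FPKM with RSL3, against 8.88, 6.78 and 2.14 FPKM with DMSO. Its fold change of 0.34 (limma adjusted p = 0.646) was -0.16 without DMSO replicate 3, its lowest library. Ddb2, a DNA damage recognition factor, averaged 0.993 ± 0.276 FPKM with RSL3 and 0.947 ± 0.131 FPKM with DMSO (SD, n = 3 each), and its groups overlapped (with no filter, limma adjusted p = 0.917).

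RSL3 replicate 1 differed from RSL3 replicates 2 and 3 along the GC content of the transcripts. Over the 36 members, whose median transcript GC content runs from 37.4% to 68.0%, the difference of replicate 1 from the mean of replicates 2 and 3 on the log2 scale correlated with GC content at r = 0.72. Over 10578 mRNAs it was 0.65. Both are descriptions across genes, which share the libraries. The lowest differences were -0.69 for Trp53inp1, -0.65 for Mdm4 and -0.47 for Ccng1, all of low GC content, and the highest differences were 0.60 for Bbc3 and 0.47 for Bad. Not every member followed its GC content. Among the 4 members with the highest GC content, Bbc3, Endog, Bcl2l2 and Bax, the differences were 0.60, 0.17, -0.39 and 0.15. Relative to the DMSO mean, the member median was 0.025 in RSL3 replicate 1, 0.081 in replicate 2 and 0.087 in replicate 3.

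**Figure D4:**
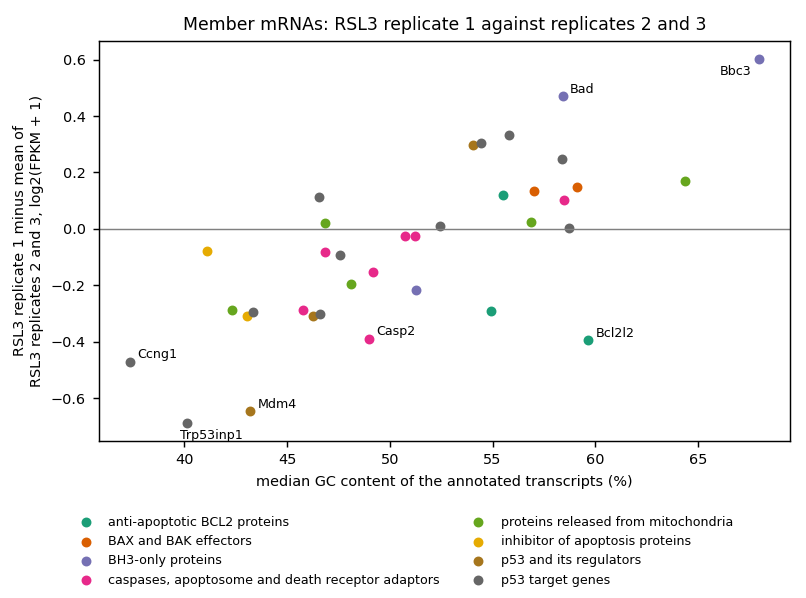
Difference of RSL3 replicate 1 from the mean of RSL3 replicates 2 and 3, in log2(FPKM + 1), against the median GC content of the annotated transcripts in percent, for the 36 tested members (points, coloured by role). The lowest point is Trp53inp1 at -0.69 and the highest Bbc3 at 0.60, with r = 0.72, and Bcl2l2 at -0.39 lies low among the GC-rich members.

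Calls among the members depended on how that library was treated. Without RSL3 replicate 1, 3 of 35 members were higher (Bcl2l2, Casp2 and Trp53inp1) and 0 lower. In that fit 520 of 10525 mRNAs were higher and 756 lower, 12.1% in either direction. Without RSL3 replicate 2, 0 members were higher and Cycs was lower, where 290 of 10504 mRNAs were higher and 435 lower (6.9% in all). With trends on transcript length and GC content removed from each library, 5 of 36 members were higher (Bid, Casp8, Cflar, Phlda3 and Trp53inp1) and Cycs was lower. There 718 of 10590 mRNAs were higher and 893 lower, 15.2% in all. With library weights, which counted RSL3 replicate 1 at 0.172 and RSL3 replicate 3 at 2.44, 8 members were higher and 2 lower. Those 8 were Bcl2l2, Bid, Casp2, Casp8, Casp9, Cflar, Phlda3 and Trp53inp1, and those 2 were Cycs and Xiap. The weighted fit called 1099 of 10590 mRNAs higher and 1314 lower, 22.8% in all. Leaving out RSL3 replicate 3 or any DMSO library gave 0 member calls, but few mRNAs were called there at all. Without RSL3 replicate 3, 56 of 10511 mRNAs were higher and 131 lower. Without a DMSO library, 47 to 60 were higher and 84 to 105 lower, so 0 members lies close to the background. Leaving out RSL3 replicate 1 also moved or turned values that stayed short of the threshold. It gave -0.15 for Trp53, 0.018 for Mdm2, 0.098 for Birc2, 0.098 for Mcl1, -0.12 for Bax, 0.090 for Bak1, -0.039 for Bad, -0.099 for Endog, -0.0041 for Aifm1 and -0.10 for Rrm2b on the log2 scale, where all 6 libraries gave -0.052, -0.085, -0.0045, 0.00038, -0.070, 0.14, 0.12, -0.042, 0.0024 and -0.20 in the same order.

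Further genes of the same pathways were read from the same fit, from lists also chosen with earlier results known. Their counts stand against the 2.46% of all mRNAs called higher and 3.92% called lower. Most are no members, but the lists also hold the members Bbc3, Cdkn1a, Mdm2, Mdm4 and Tigar. Counts and medians of lists with a member are not independent of the member results. The median log2 fold change was -0.037 for further caspase, death receptor and IAP genes, -0.025 for further BCL2 family genes, 0.062 for further p53 targets and -0.070 for p53 regulators, against -0.031 for all mRNAs. Among 24 further caspase, death receptor and IAP genes, 0 were higher and 2 lower with RSL3. Those were Lmnb1, a nuclear lamin that caspases cleave (log2 fold change -0.33, limma adjusted p = 0.0179), and Birc5, which encodes survivin, an IAP family protein of mitosis (log2 fold change -0.39, limma adjusted p = 0.0186). Lmnb1 was at 41.2, 42.4 and 43.0 FPKM with RSL3 and 54.2, 53.4 and 51.9 FPKM with DMSO. Fas had no row in the tables used here. Among 17 further BCL2 family and mitochondrial genes, 1 was higher and 0 lower. That was Bnip3, a hypoxia-induced BH3-type mitophagy receptor, at 15.8, 21.1 and 20.1 FPKM with RSL3 and 12.8, 12.9 and 13.9 FPKM with DMSO (log2 fold change 0.49, limma adjusted p = 0.0466).

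Of 36 further p53 target genes, 5 rose and 1 fell. Ephx1, an epoxide hydrolase, was at 107, 98.1 and 97.5 FPKM with RSL3, against 73.0, 73.7 and 73.9 FPKM with DMSO, a wide gap between tight groups (log2 fold change 0.45, limma adjusted p = 0.00847). Pltp, a phospholipid transfer protein, was at 6.27, 5.45 and 5.60 FPKM with RSL3 and 3.69, 3.91 and 3.99 FPKM with DMSO (log2 fold change 0.48, limma adjusted p = 0.0209). Gtse1, a mitotic protein that also restrains p53, was at 20.1, 14.7 and 16.6 FPKM with RSL3 and 25.3, 26.7 and 26.6 FPKM with DMSO (log2 fold change -0.59, limma adjusted p = 0.0242). The others that rose, named after their values were seen, were Abhd4, Sco2 and Pmm1, with log2 fold changes of 0.59, 0.38 and 0.26. Among 38 p53 regulators and co-factors, 0 were higher and 1 lower: Trp53bp2, which encodes the p53 partner ASPP2, at 20.7, 20.6 and 20.3 FPKM with RSL3 and 27.6, 29.5 and 27.7 FPKM with DMSO (log2 fold change -0.44, limma adjusted p = 0.00915).

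Where p53 meets ferroptosis, 0 of 14 tested genes passed in either direction, 4 of them members, and 3 had an unadjusted p under 0.05 (median log2 fold change -0.099). Slc7a11, the cystine carrier that p53 represses, was at 6.45, 10.1 and 9.41 FPKM with RSL3, against 6.79, 7.11 and 6.92 FPKM with DMSO, with RSL3 replicate 1 below and the others above the DMSO range (log2 fold change 0.26, limma adjusted p = 0.333). Without RSL3 replicate 1 its fold change was 0.44 and passed the threshold. Gpx4, which encodes the protein that RSL3 binds, was at 139, 151 and 164 FPKM with RSL3 and 159, 155 and 160 FPKM with DMSO (log2 fold change -0.066, limma adjusted p = 0.627). Of 21 genes of necroptosis and pyroptosis, other forms of lytic death, only 8 had a row and 7 were tested. Of those 7, 0 passed (median -0.035). An unadjusted p under 0.05 was reached by 0 of them, against 24.1% of all mRNAs. Of 20 genes of the stress-induced ATF4 and CHOP branch, 1 was higher and 1 lower (median 0.039). Ddit4, a brake on mTOR signalling, was at 147, 131 and 138 FPKM with RSL3 and 112, 104 and 114 FPKM with DMSO (log2 fold change 0.33, limma adjusted p = 0.0332). Ppp1r15a, which encodes GADD34, was at 44.9, 50.2 and 51.8 FPKM with RSL3 and 61.8, 61.8 and 60.8 FPKM with DMSO (log2 fold change -0.32, limma adjusted p = 0.0392).

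The calls named outside the members depended on single libraries and on the fit. Without RSL3 replicate 3, and without each DMSO library in turn, Lmnb1, Birc5, Pltp, Gtse1, Trp53bp2, Bnip3, Ddit4 and Ppp1r15a no longer passed; Bnip3 and Ppp1r15a also failed without RSL3 replicate 2. Ephx1 failed without each DMSO library. Calls over all mRNAs fell in the same fits: 261 higher and 415 lower with all libraries, 56 and 131 without RSL3 replicate 3. Without DMSO replicate 1, 2 or 3 they were 60 and 105, 59 and 84, and 47 and 90. The fold changes of the named genes kept their sign, running from -0.46 to -0.41 for Trp53bp2 and from -0.71 to -0.49 for Gtse1. With all libraries, Bnip3, Ddit4 and Ppp1r15a failed with no mean-variance trend, Gtse1 and Ddit4 under median-ratio scaling, and Ppp1r15a under quantile normalization. Counts over the further p53 targets accordingly ran from 0 to 6 higher and from 0 to 2 lower as single libraries were left out, those over the further caspase and IAP genes from 0 to 4 lower, and those over the p53 regulators from 0 to 4 lower.

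Non-coding RNAs of the pathway gave no call. Of 798 lncRNAs tested in limma, 0 (0%) passed, while 95 (11.9%) had an unadjusted p under 0.05. Of 12 lncRNAs linked to p53, 9 were tested, 0 passed and 1 had an unadjusted p under 0.05. That was Malat1, an abundant nuclear lncRNA, at 220, 328 and 339 FPKM with RSL3, against 211, 189 and 196 FPKM with DMSO (log2 fold change 0.55, limma adjusted p = 0.254). Trp53cor1, the p53-induced lncRNA-p21 transcribed beside Cdkn1a, was at 1.51, 1.29 and 1.50 FPKM with RSL3 and 0.966, 0.958 and 1.38 FPKM with DMSO, with groups that overlapped (log2 fold change 0.28, limma adjusted p = 0.494). Snhg1 averaged 34.9 ± 11.1 FPKM with RSL3 and 43.6 ± 1.43 FPKM with DMSO (SD, n = 3 each) (log2 fold change -0.37, limma adjusted p = 0.524). Of 1414 circRNAs named by coordinates, 1 lay within a member gene, Mdm2 (chromosome 10, 117701565 to 117705229, minus strand), with 0, 2 and 0 recovered back-splice reads with RSL3 and 2, 2 and 1 with DMSO, too few for a comparison. The other 1754 of 3168 circRNAs carry a circBase identifier and were not placed on genes, so members may host more.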

How the data were processed

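The labels' protocols name a poly(A) module under removal of rRNA, and the libraries were stranded. If the RNA was poly(A)-selected, the lncRNA and circRNA values may be partial. FPKM of mRNAs and lncRNAs are the values that the authors deposited. Per the submitters' processing notes, the tools were StringTie 1.3.3, HISAT2 and cutadapt, on GRCm38. Annotation release, circRNA caller and filters were not given in the sources used here. Deposited circRNA values are a scaled signal, in which 100% of the values above 0, divided by the smallest of their library, lay within 0.01 of a whole number, taken as back-splice reads. The whole numbers gave 5226 to 7364 reads per RSL3 library and 7179 to 9409 per DMSO library, and no count test was run on the 1 circRNA described.

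The 42 members and all other lists were chosen with earlier results of these data known. The RSL3 libraries were tested against the DMSO libraries two-sided in limma 3.58.1 under R 4.3.3, using its intensity trend and Benjamini-Hochberg adjustment over all mRNAs or all lncRNAs tested. mRNAs were tested on log2(FPKM + 1) where 3 or more libraries reached 1 FPKM, and lncRNAs on log2(FPKM + 0.5) where 3 or more reached 0.5 FPKM. The fit was tested on simulated data with independent noise for each gene. Those data held no shift along GC content, so they do not cover the difference of RSL3 replicate 1. Values in each library are given for any member past the threshold and always for Trp53, Mdm2, Cdkn1a, Ccng1, Bax, Bak1, Bbc3, Bcl2l1, Mcl1, Casp8, Casp9, Apaf1, Cycs and Xiap. From each other list up to 3 genes past the threshold with the smallest p are named, and always Gpx4 and Slc7a11; some genes that this rule names are not reported here. Values in each library of other members, and other genes, were chosen after their values were seen. Positions, GC content and shared 31-base words came from GENCODE M21 on GRCm38, and promoters from RefSeq on GRCm38.p6. Alternatives were other scalings, pseudocounts, filters, no trend, library weights, trends removed, a replicate block and each library left out.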

Additional observations from a re-analysis of the deposited data

How the results depend on the processing

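Of 347 member fold changes under 10 alternatives that keep all libraries, 318 kept their sign and their side of the threshold, 16 newly passed it and 13 turned sign, none of them past the threshold. With library weights 8 members were higher and 2 lower, and with length and GC trends removed 5 and 1, against 0 and 0. Over all 10590 mRNAs, the fit with weights called 1099 higher and 1314 lower, and the fit with trends removed 718 and 893. Leaving out 1 library gave 0 to 3 members higher and 0 to 1 lower. The replicate block gave 0 and 0 (smallest member adjusted p = 0.0876 in limma; 88 mRNAs higher and 165 lower). It ended the calls of Bnip3, Lmnb1, Birc5, Pltp, Gtse1, Ddit4 and Ppp1r15a, not those of Ephx1 and Trp53bp2. With no mean-variance trend the calls of Bnip3, Ddit4 and Ppp1r15a ended too. Deviations of same-numbered libraries correlated at -0.15, 0.049 and -0.062. These values show no clear pairing, but with 3 libraries in each group they cannot exclude it. The member median was 0.082 after quantile normalization, 0.089 with weights and 0.084 with trends removed, and -0.018 to 0.090 with a library left out.

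Signs turned for Bbc3 (0.017) and Birc2 (0.021) under median-ratio scaling, and Bax (0.0020), Trp53 (0.034) and Gpx4 (0.093) under quantile normalization. With weights they turned for Bad (-0.044), Aifm1 (-0.017), Birc2 (0.099), Ccng1 (0.10) and Gpx4 (0.017), and with trends removed for Mcl1 (-0.014), Birc2 (0.097), Mdm2 (0.0016), Ccng1 (0.10) and Ei24 (0.0093). With a library left out the range spanned 0 for Aen (-0.16 to 0.67), Aifm1 (-0.042 to 0.062), Bad (-0.039 to 0.27), Bbc3 (-0.22 to 0.21), Birc2 (-0.066 to 0.098), Ccng1 (-0.11 to 0.13), Endog (-0.099 to 0.052), Mcl1 (-0.081 to 0.098), Mdm2 (-0.16 to 0.018), Mlkl (-0.054 to 0.13) and Trp53 (-0.15 to 0.030). Of the p53-linked lncRNAs, 1 (Malat1) passed with trends removed, and 0 to 1 with a library left out. The cause of these changes was not tested. Casp6 had no value when any RSL3 library was left out, and the filter at 5 FPKM kept 23 members. Library weights used a gene-by-gene estimate because the default did not converge. Unknown read depth limits the precision of members near 1 FPKM.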

Other observations

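Stress and death genes outside the member list, chosen after their values were seen, gave the following values. Hmox1, the haem oxygenase of the oxidative stress response, was at 88.1, 76.2 and 79.1 FPKM with RSL3, against 46.1, 49.8 and 49.5 FPKM with DMSO (log2 fold change 0.73, limma adjusted p = 0.00401). Its groups were far apart relative to the spread within each. Sat1, a polyamine-degrading enzyme described as a p53 target in ferroptosis, was at 10.8, 13.7 and 12.9 FPKM with RSL3, against 8.89, 9.84 and 7.70 FPKM with DMSO. Every RSL3 value lay above every DMSO value, and the difference missed the threshold (log2 fold change 0.46, limma adjusted p = 0.0662) but passed under median-ratio scaling and quantile normalization. The BH3-only gene Bmf was at 4.12, 3.79 and 3.81 FPKM with RSL3, against 2.80, 3.23 and 2.45 FPKM with DMSO (log2 fold change 0.36, limma adjusted p = 0.0749). Ddit3, which encodes the stress factor CHOP, was at 64.0, 63.8 and 58.0 FPKM with RSL3, against 57.5, 59.1 and 56.1 FPKM with DMSO, and overlapped (log2 fold change 0.10, limma adjusted p = 0.371). Mlkl, the pore former of necroptosis, was at 15.7, 20.7 and 19.7 FPKM with RSL3, against 17.8, 19.9 and 17.4 FPKM with DMSO (log2 fold change 0.018, limma adjusted p = 0.941).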
